A study of Mus musculus with 4 samples.

Results

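The 10 immediate early genes Fos, Fosb, Jun, Egr1, Ier2, Dusp1, Btg2, Cyr61, Ctgf and Socs3 were followed through the SSRP1 binding sites of mouse embryonic stem cells. A peak was taken to belong to a gene when it overlapped, or lay within 2 kb of, an interval set for that gene on the mouse build mm9. This gave 21 of the 5011 peaks of replicate 1 and 4 of the 2342 peaks of replicate 2. The genes were chosen by measured values, namely a strong peak in replicate 1 with no counterpart in replicate 2, so the presence, absence and strength of these peaks are described without a test. That description held for 8 of the 10 genes, because Egr1 and Ier2 had peaks in both samples. For 8 of the genes both ends of the interval were ends of replicate 1 peaks, so how much of such an interval a peak filled is no finding. The pairing of intervals with gene names was taken as given. The chromosome was the same in the RefSeq gene table of another mouse build (GRCm38.p6) for all 10 genes, and no mm9 annotation was used to say which part is exon, intron or UTR.

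SSRP1 works with SPT16 as the chaperone complex FACT, which loosens and restores nucleosomes in front of and behind RNA polymerase II. Immediate early genes are short genes that cells switch on within minutes of a signal such as a growth factor, serum or stress, without first making new protein. Many encode transcription factors, others encode feedback inhibitors or secreted proteins, and their transcripts are short-lived.

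The cells were E14, an established mouse embryonic stem cell line, grown on gelatin in medium with fetal bovine serum and LIF, the cytokine that keeps such cells pluripotent. No group was treated, and no genotype other than that of the line was named. The series comprised 2 samples precipitated with an antibody to SSRP1 and 2 inputs, numbered 1 and 2 in each group; each SSRP1 sample had its own peak list, and values of the inputs were not analysed here. Whether the replicates came from separate cultures is not given in the sources used here, so any difference between them may be technical. Peak lists carry no expression values, so the cell type was not checked against marker genes.

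Promoter sequence in the RefSeq table (GRCm38.p6) was matched for 7 of the 10 genes. The 200 bases before the start site are shown only for the 5 in which TGACG was found. TGACG is the core of the cAMP response element (CRE), TGACGTCA, through which CREB-family factors act on immediate early genes. Jun and Socs3, in which TGACG was not found, are not shown. Capitals mark TGACG on either strand and TGACGTCA, in Fos and Cyr61 also TATAAA, the TATA box, and in Cyr61 also CATTCC, the letters that TEAD factors bind. The stretches lie at chr12:85473690-85473889 on the plus strand (Fos) and, on the minus strand, at chr7:19310046-19310245 (Fosb), chr17:26508473-26508672 (Dusp1), chr1:134079156-134079355 (Btg2) and chr3:145649986-145650185 (Cyr61, listed as Ccn1). These GRCm38.p6 positions cannot be set beside the mm9 positions of the peaks.
Fos: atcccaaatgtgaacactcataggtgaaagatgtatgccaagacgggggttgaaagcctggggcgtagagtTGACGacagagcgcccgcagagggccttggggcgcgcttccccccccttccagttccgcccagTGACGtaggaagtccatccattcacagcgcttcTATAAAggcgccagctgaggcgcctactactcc
Fosb: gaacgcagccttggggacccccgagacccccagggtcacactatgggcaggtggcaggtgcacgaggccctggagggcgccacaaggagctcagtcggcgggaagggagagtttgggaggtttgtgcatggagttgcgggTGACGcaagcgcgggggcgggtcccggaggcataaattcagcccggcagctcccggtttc
Dusp1: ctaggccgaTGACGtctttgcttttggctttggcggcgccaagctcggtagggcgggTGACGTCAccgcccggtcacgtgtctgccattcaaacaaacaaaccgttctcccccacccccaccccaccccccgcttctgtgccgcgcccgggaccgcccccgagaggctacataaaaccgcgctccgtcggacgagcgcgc
Btg2: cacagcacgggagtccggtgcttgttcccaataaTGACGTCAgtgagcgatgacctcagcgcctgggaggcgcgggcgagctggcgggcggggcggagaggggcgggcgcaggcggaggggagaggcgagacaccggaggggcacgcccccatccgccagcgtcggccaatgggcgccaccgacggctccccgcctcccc
Cyr61: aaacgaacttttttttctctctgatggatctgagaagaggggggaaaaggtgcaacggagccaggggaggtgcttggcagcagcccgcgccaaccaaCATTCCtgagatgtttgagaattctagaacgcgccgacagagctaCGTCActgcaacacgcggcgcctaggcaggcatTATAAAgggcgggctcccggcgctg

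TGACG was found in the 250 bases before the start in 5 of the 7 genes (Fos, Fosb, Dusp1, Btg2 and Cyr61), against 17.8% of all 32851 promoter windows of the table. The whole TGACGTCA stood in 2 of 7, at 143 to 136 bases before the start in Dusp1 and 166 to 159 in Btg2, against 1.55% of windows. In Fos the TGACG nearest the start lay at 66 to 62 bases and TATAAA at 33 to 28 bases before it. Both strands were searched, and each TGACGTCA also counts as a TGACG.

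The letters GGGCGG, bound by SP1, were in all 7 windows (32.7% of windows overall), GCGGGGGCG, bound by EGR factors, in Fosb and Socs3 (2.57%), TATAAA in Fos and Cyr61 (12.4%) and CATTCC in Cyr61 (12.6%). None of the 7 windows held the CArG box of serum response factor (1.47% of windows), TGACTCA of AP-1 (4.46%), GCGTGGGCG of EGR factors (0.536%), CCGGAA of ETS factors (12.0%) or TTCCNGGAA of STAT factors (0.913%). Only the 250 bases before the start were searched, so these counts do not cover matches further upstream or within the gene. Egr1, Ier2 and Ctgf had no window to search. A match is a string of letters and was not tested as a binding site. GCGGGGGCG and GGGCGG overlapped in Fosb. Of 24 other immediate early genes 18 had promoter sequence, in 25 windows: TGACG was in 13 of these, TGACGTCA in 1, GGGCGG in 19 and the CArG box in 6. GCGGGGGCG and CCGGAA were each in 6 of the 25, CATTCC in 3, TATAAA in 2 and GCGTGGGCG in 1. TGACTCA and TTCCNGGAA were in none. SSRP1 peaks at those 24 genes were not analysed here, since their mm9 positions were not used.

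All 10 genes carried a wide, strong peak in replicate 1. The fold values are the authors' own: the enrichment at the summit, the highest point of the peak, over the local background. Whether that background came from the input is not given in the lists. Fold values rank peaks within a list, and folds of different lists set side by side say nothing on how much binding changed. The strongest peak per gene had a median fold of 16.6 (7.79 to 34.0) and a median width of 3852 bp (1857 to 5322 bp), against medians of 4.57 and 301 bp over all peaks of replicate 1. The number of ChIP fragments over each summit was recovered from the fold and p-value and ran from 30 to 157 at these peaks (median 67.5), against a list median of 19. The 21 peaks were 0.419% of the list's peaks and 2.25% of the bases it covered.

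**Figure D1:**
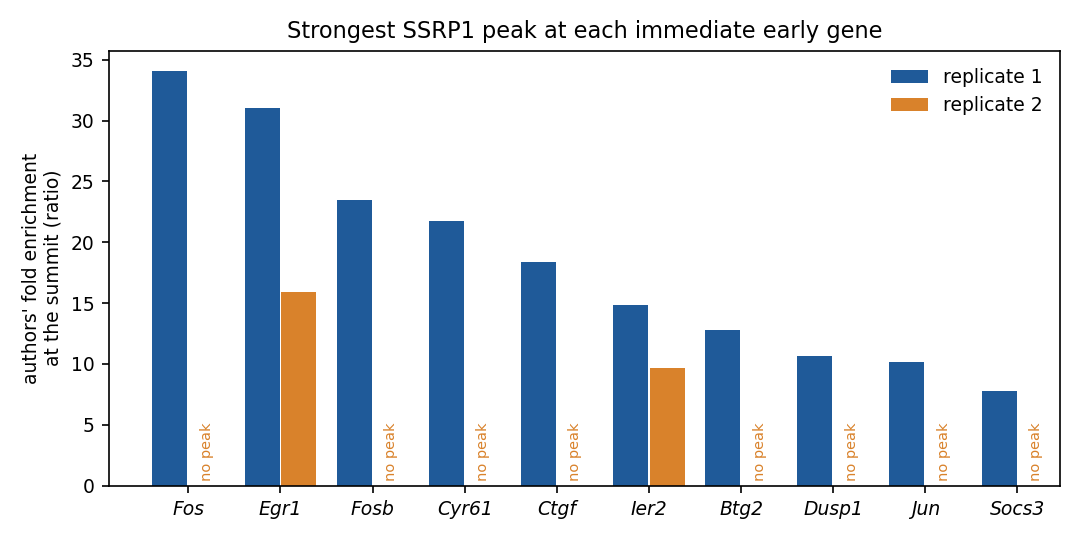
Bars give the authors' fold enrichment (a ratio) at the strongest SSRP1 peak within 2 kb of each gene interval, blue for replicate 1 and orange for replicate 2, with "no peak" where replicate 2 had none there. Replicate 1 runs from 34.0 at Fos to 7.79 at Socs3, and replicate 2 has bars at Egr1 and Ier2 only.

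Among the AP-1 genes, whose products pair to form that transcription factor, Fos stood out by its strength. Its peak at chr12:86814803-86820031 was 5229 bp wide, had a fold of 34.0 and held 139 fragments over the summit. It ranked 18th by fold and 5th by width among the 5011 peaks of replicate 1 and 2nd by fold on its chromosome. A second, narrow peak of 274 bp with a fold of 4.98 lay 626 bp before it. In replicate 2 the nearest peak to Fos was 590 kb away.

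Fosb, the close relative of Fos, had a pair of wide peaks 236 bp apart. The stronger, at chr7:19891579-19895308, spanned 3730 bp, with a fold of 23.5 and 76 fragments. The other, at chr7:19887016-19891342, spanned 4327 bp, at a fold of 9.03 with 45 fragments. Together they made Fosb the gene with the longest stretch under peaks, 8057 bp, and the nearest replicate 2 peak was 73.1 kb from the interval.

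Jun, the usual partner of Fos, had a weaker peak at chr4:94715614-94718856, of 3243 bp with a fold of 10.2 and 38 fragments. A narrow peak of 380 bp and fold 4.49 lay 138 bp beside it. The surroundings of Jun were bare in both lists: beyond 2 kb the next peak was 915 kb away in replicate 1 and 3687 kb away in replicate 2.

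Egr1, a zinc finger factor induced by serum and growth factors, and Ier2, a small nuclear protein, were the genes found in both samples. The Egr1 peak of replicate 1 at chr18:35020848-35026169 was 5322 bp wide, the 4th widest of the list, with a fold of 31.0 and 157 fragments. In replicate 2 the peak at chr18:35020897-35024231 spanned 3335 bp at a fold of 15.9 with 115 fragments, and lay wholly inside that of replicate 1. The summits were 186 bp apart. A second peak of 246 bp with a fold of 4.93 followed 316 bp further in replicate 2, within the span of the replicate 1 peak.

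At Ier2 replicate 1 had a peak of 3167 bp at chr8:87183618-87186784 with a fold of 14.9 and 64 fragments. Replicate 2 had one of 2332 bp at chr8:87184372-87186703 with a fold of 9.69 and 73 fragments, again wholly inside. The summits were 29 bp apart. Over all 1386 overlapping peaks of replicate 1, each set against its strongest partner, the median distance was 70.5 bp, below the 186 bp of Egr1 and above the 29 bp of Ier2, and over the 26 such peaks of 3 kb or more away from the 10 genes it was 610 bp. Each list also had a narrow second peak near Ier2, with folds of 3.71 and 6.74, and these did not overlap each other. The intervals of Egr1 and Ier2 did not come from peak ends: replicate 1's peaks covered 100% of both, and replicate 2's covered 90.6% of the 3750 bp at Egr1 and 96.3% of the 1531 bp at Ier2.

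At both genes the fold was lower in replicate 2, at 0.513 times that of replicate 1 for Egr1 and 0.652 times for Ier2. The median of this ratio was 1.22 over the 1386 overlapping peaks and 0.932 (0.385 to 3.15) over the 26 overlapping peaks of 3 kb or more that lay at none of the 10 genes. Of those 26, 4 had a lower ratio than Egr1 and 4 a lower one than Ier2. With fragments set over each list's genome-wide background in place of the authors' fold, the ratio was 0.335 for Egr1 and 0.522 for Ier2. Each fragment of replicate 2 counted as 0.416 after scaling, so its 115 and 73 fragments entered the folds as fewer than the 157 and 64 of replicate 1. Since the 10 genes were picked for strong replicate 1 peaks without a counterpart in replicate 2, the choice itself favours low ratios. No change in binding is read from them.

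Dusp1, Btg2 and Socs3 encode inhibitors of signalling or growth, and their main peaks had folds of 10.7, 12.8 and 7.79. Dusp1, a phosphatase that switches off MAP kinases, had a peak of 3973 bp at chr17:26641414-26645386 with a fold of 10.7 and 71 fragments. Its local background was 5.73, which is 2.52 times the genome-wide value and the highest among the 10 strongest peaks. Smaller peaks with folds of 5.65 and 3.71 lay 298 and 1876 bp from the Dusp1 interval. Dusp1 ranked 6th by fold among the 296 replicate 1 peaks of chromosome 17.

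Btg2, an antiproliferative gene, had a pair of wide peaks 181 bp apart. The stronger was the narrower, 1857 bp at chr1:135973889-135975745 with a fold of 12.8 and 60 fragments. The other was 3117 bp at chr1:135970591-135973707, with a fold of 10.04 and 36 fragments. A further one, of 200 bp, had a fold of 3.34.

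Socs3, which blocks the JAK-STAT signal that LIF sends in these cells, had the weakest main peak of the 10. It was 3401 bp wide at chr11:117826416-117829816, with a fold of 7.79 and 30 fragments. It ranked 374th by fold but 28th by width in the list, and 38th by fold among the 410 peaks of chromosome 11. Socs3 also had the closest replicate 2 peak of the 8 genes without one, 61.3 kb from the interval.

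Cyr61 and Ctgf encode secreted matrix proteins of the CCN family and are textbook targets of YAP and TEAD. The Cyr61 peak at chr3:145308910-145313001 spanned 4092 bp and had a fold of 21.7 with 92 fragments, and a narrow peak of fold 4.23 lay 183 bp from it. The Ctgf peak at chr10:24315413-24319610 spanned 4198 bp and had a fold of 18.4 with 61 fragments, and was the strongest of chromosome 10. The nearest replicate 2 peaks were 1396 kb and 808 kb away. Ctgf was the only gene of the 10 with a single peak in replicate 1.

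Most of the main peaks had their summit near an edge. At the strongest peak of each gene the summit lay a median of 13.1% of the width from the nearer edge (6.79 to 28.0%), and within 20% of it in 8 of 10. The 29 other peaks of 3 kb or more in replicate 1 had a median of 19.2% (3.69 to 49.8%), and 16 of them (55.2%) had the summit within 20%. Strand was given by the promoter table for 7 genes. In all 7 the summit lay nearer the upstream edge, the side where the gene starts, at 6.8% of the width from that edge in Fos, 8.7% in Dusp1, 11.0% in Fosb, 15.2% in Btg2, 16.5% in Jun, 16.7% in Cyr61 and 28.0% in Socs3. In base pairs these distances ran from 282 in Btg2 and 345 in Dusp1 to 952 in Socs3. From the summit these 7 peaks extended mainly in the direction of transcription. Of the wide second peaks, that of Btg2 had its summit 9.6% of the width from the upstream edge, while that of Fosb had a central one, 2338 bp from the upstream and 1988 bp from the downstream edge. The distance from the start site was not measured, since the strand and the peaks come from different builds. In replicate 2 the Egr1 summit lay 9.2% of the width from the low-coordinate edge, against 10.2% in replicate 1. For Ier2 the values were 66.5% and 73.7%.

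The 9 replicate 1 peaks under 1 kb at these genes were ordinary in strength. Their widths ran from 200 to 794 bp, their folds from 3.34 to 5.65 and their fragments from 16 to 25, and none overlapped a replicate 2 peak. Most replicate 1 peaks of like fold away from these genes, at any width, had no such overlap either. The share that overlapped was 18.7% under a fold of 4, 18.3% from 4 to 5 and 32.5% from 5 to 7. The outermost small peak counted at these genes lay 1876 bp from the Dusp1 interval. Just beyond 2 kb, replicate 1 had peaks 2.35 kb from Ier2 (fold 3.34), 3.06 kb from Cyr61 (fold 4.56) and 4.32 kb from Ctgf (fold 6.96), which were not counted.

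Over the whole list, 72.3% of replicate 1's peaks had no overlapping peak in replicate 2, so most peaks were unshared and a bare count of unshared peaks says little. Of the 21 peaks near these genes, 19 were unshared. Strong and wide peaks were mostly shared. Among the 374 peaks with a fold of at least that of Socs3's main peak, 22.7% were unshared (95% Clopper-Pearson interval 18.6 to 27.3%, counting error only), and of the 10 main peaks 8 were. Of the 40 peaks with a fold of 20 or more, 3 had no partner (7.50%), and these were the peaks of Fos, Fosb and Cyr61. The fourth of the 10 genes in that range, Egr1, had one. As the genes were picked for missing partners, these counts restate the choice.

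**Figure D2:**
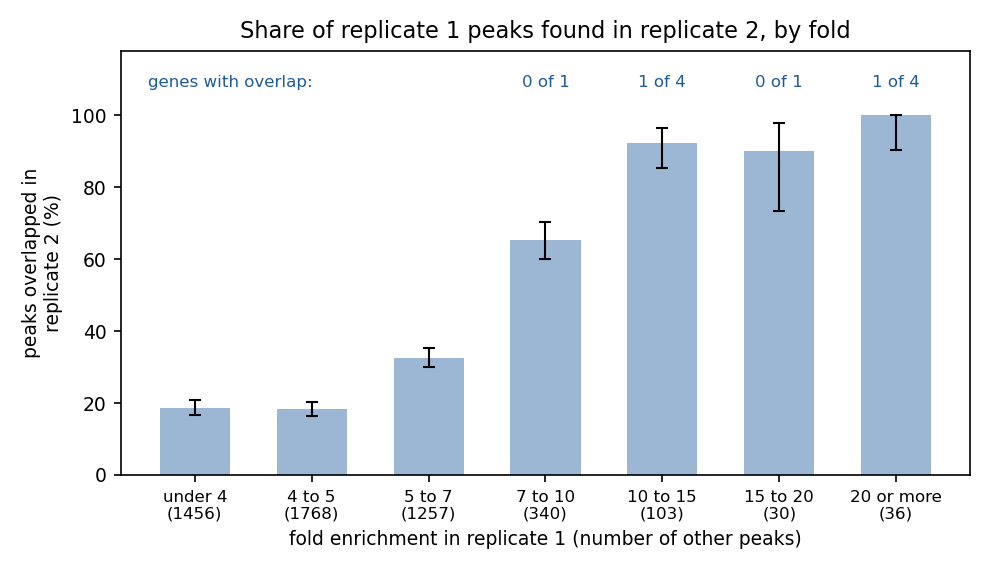
Bars give the percentage of replicate 1 peaks away from the 10 genes that overlapped a replicate 2 peak, by the authors' fold in replicate 1, with exact 95% binomial intervals and the number of peaks in brackets. The share climbs from 18.7% under a fold of 4 to 100% of 36 peaks at 20 or more, while the blue counts give the main peaks of the 10 genes that overlapped, 1 of 4 in the highest range.

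Peaks of like strength elsewhere give the level seen in replicate 2. All 9 other peaks with a fold within 20% of that of Fos had a partner there, with partner folds from 6.83 to 36.8 (median 11.7). For Fosb 17 of 18 such peaks had a partner, for Cyr61 20 of 22, for Ctgf 37 of 40, for Btg2 88 of 96, for Dusp1 133 of 164 and for Jun 158 of 210. For Socs3 it was 333 of 594 (56.1%). For the 2 genes with a replicate 2 peak it was 13 of 13 (Egr1) and 63 of 66 (Ier2). Most of these peaks were narrower than those of the 10 genes: only 1 of the 9 set beside Fos was 1 kb or wider. Of those 1 kb or wider, 8 of 8 had a partner for Fosb, 11 of 12 for Cyr61, 18 of 20 for Ctgf, 43 of 46 for Btg2, 58 of 66 for Dusp1, 66 of 77 for Jun and 69 of 97 for Socs3. Replicate 2's list reached down to 26 fragments, which at its genome-wide background was a fold of 3.85. Each of these counted as 0.416 after scaling, so the 26 cannot be set beside fragment numbers of replicate 1. That list reached down to 10 fragments. Over higher backgrounds replicate 2's folds went down to 1.81. The list gives neither the level nor the local background at the 8 genes without a peak. As the genes were picked for missing partners, setting these 8 beside peaks of like fold restates the choice.

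Of the 40 replicate 1 peaks of 3 kb or more, 12 (30.0%) were unshared, and 9 of these 12 belonged to the immediate early genes: 2 to Fosb and 1 each to Fos, Cyr61, Ctgf, Dusp1, Jun, Btg2 and Socs3. The 3 others lay at chr3:96361821-96366539 (fold 18.5), chr8:86724495-86728174 (fold 11.0) and chr2:164265546-164268760 (fold 9.36), and no gene was assigned to them. Away from these genes 3 of 29 wide peaks were unshared (10.3%). As the genes were picked for missing partners, this contrast restates the choice. The 11 wide peaks at the 10 genes were spread over 10 chromosomes. In replicate 2 the Egr1 peak was the only one of that list's 31 peaks of 3 kb or more at these genes.

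**Figure D3:**
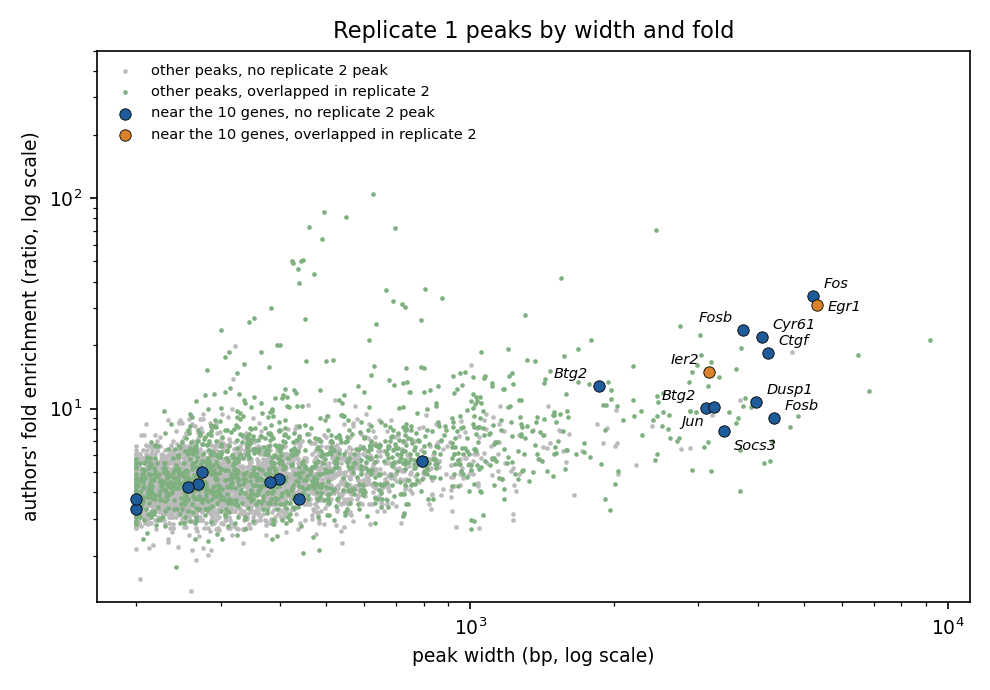
Every replicate 1 peak is a point by width in bp and the authors' fold, both on log scales; grey and green points are other peaks without and with an overlapping replicate 2 peak, blue and orange points those near the 10 genes. The labelled peaks of the immediate early genes lie at widths of 1857 to 5322 bp, among mostly green points, and are blue except for Egr1 and Ier2.

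The local background under the main peaks ran from 2.28 to 5.73 scaled fragments with a median of 3.19, against 3.28 over the list, and it was under 2 times the genome-wide value in 9 of 10 (82.0% of all replicate 1 peaks). At Fosb's main peak it equalled the genome-wide value. Recovered depth covers only reads that entered peak calling, and totals per library are not given in the lists.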

How the data were processed

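SSRP1 ChIP-seq peaks of 2 samples were analysed. Each list was called on its own sample, as the peak names show. The build mm9 and the tools MACS2, STAR and deepTools are named, without roles or versions, per the submitters' processing notes. Each deposited list gives the fold enrichment at the summit (a ratio), the −log10 p and −log10 q, a score derived from the −log10 q and not used, and the summit offset, all made by the authors.

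Peaks were read with Python 3.11.15, pandas 2.3.3 and scipy 1.17.1, and positions count from 1. Lists were compared by an overlap of at least 1 bp. Depth was recovered by assuming MACS2's formulas, fold = (pileup + 1) / (background + 1) and p = the Poisson tail above the whole part of the pileup. All 5011 pileups of replicate 1 came out as whole fragments and all 2342 of replicate 2 as whole multiples of 0.416, within 0.02 of a fragment. The scaling step was chosen so that nearly all came out whole, so this result is partly built in. On a subset of peaks and under a tighter tolerance, the best unrelated step gave 55.1% in replicate 1 and 38.9% in replicate 2. The genome-wide background, taken as a very low percentile of the recovered backgrounds, was 2.28 and 2.07. On simulated data the recovery returned the exact number for 100% of 297 peaks made like replicate 1's and of 292 like replicate 2's. There the scaling step was given beforehand, for replicate 2 at a value close to 0.416. How that step was found in the real lists was thus not checked by simulation. Whole-library depth is not given in the lists.

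The genes, lists and rules were chosen with earlier results of these data known. Named were the 10 genes with every peak within 2 kb in either list, the nearest peaks beyond, and the unshared replicate 1 peaks of 3 kb or more. Gene neighbours were not used further. Alternatives changed the distance, the −log10 q minimum, the overlap rule and merging. Input values were not analysed here.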

Additional observations from a re-analysis of the deposited data

How the results depend on the processing

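The counts of genes with a peak (10 in replicate 1, 2 in replicate 2, 8 in replicate 1 only) came out alike with distances of 0 bp or 10 kb, −log10 q of 5 or 10 or more and peaks merged within 1 kb; the last 2 counts did also at 50 kb, a distance added after the data had been seen. The 19 unshared peaks near the genes became 10 with a distance of 0 bp, 10 with −log10 q of 10 or more and 8 after merging, each of which leaves fewer or longer peaks to count; with other rules there were 17 to 24. The unshared share of all replicate 1 peaks, 72.3%, was 76.2% with 50% overlap, 63.6% with a replicate 2 peak within 2 kb, 67.6% and 55.2% with −log10 q of at least 5 and 10, 73.6% after merging, 26.4% for peaks of 1 kb or more, 22.7% for peaks as strong as Socs3's and, added later, 30.0% for those of 3 kb or more; the first 2 settings change only what counts as shared, the others which peaks are compared, and beyond that the cause was not tested. The median fold of 16.6 at the main peaks was 29.6 as fragments over the genome-wide background, which has no local background and no added 1. No paired analysis was possible because the files used here hold peak lists of the SSRP1 samples only, and none with values of the inputs that share their replicate numbers. With either replicate left out, 1 list remains and there is no overlap to count. Precision is limited by 2 lists, and presence or absence depends on each list's calling threshold.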
